A study of Mus musculus with 18 samples.

Results

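The genes described here encode the pore-forming subunits of the glutamate, GABA-A, glycine and nicotinic acetylcholine receptors, the ligand-gated ion channels of fast synaptic transmission. They were chosen by gene symbol alone, as every symbol made of Gria, Grik, Grin, Grid, Gabra, Gabrb, Gabrg, Glra, Chrna or Chrnb and a number, with or without a letter from a to d after it. The rule matched 47 of the 51290 genes in the table: 4 AMPA, 5 kainate, 7 NMDA and 2 delta-type glutamate receptor subunits, 12 GABA-A, 4 glycine and 13 nicotinic subunits. Poly(A) RNA from 18 mouse samples was sequenced in 3 groups of 6. All 3 groups carried floxed Nf1, the gene of the RAS regulator neurofibromin. The normal nerves were Nf1 flox/flox PostnCre- trigeminal nerves. The plexiform neurofibromas, benign tumours that grow along nerves, were labelled as trigeminal nerves too and came from Nf1 flox/flox PostnCre+ animals, in which the Postn promoter drives the Cre recombinase. The MPNST (malignant peripheral nerve sheath tumours) came from animals that were Nf1 flox/flox Arf flox/flox PostnCre+, with a second floxed tumour suppressor. The labels give no body site for the MPNST and no age for any group. They also tie the 12 trigeminal libraries, and not the MPNST, to another series, so a difference between MPNST and the other groups cannot be told apart from a difference of tissue site or of series.

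Glutamate opens AMPA, kainate and NMDA channels and excites the cell. GABA and glycine open chloride channels of the same pentameric family as the nicotinic receptors, and sensory neurons of the trigeminal and dorsal root ganglia respond to GABA through GABA-A receptors. In skeletal muscle a separate nicotinic receptor, built from Chrna1, Chrnb1, Chrnd and either Chrng or Chrne, receives the signal of the motor nerve. Kainate receptors are found on small sensory neurons, and AMPA and kainate subunits are also made by glia.

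Totals ran from 14304163 to 20335502 estimated counts per library in nerve, from 15308065 to 20056349 in the neurofibromas and from 13885900 to 23652617 in MPNST. Levels are given in CPM (counts scaled to the library's total), as lowest, median and highest of the 6 libraries of a group. Nf1, the targeted gene, was 82.4, 130.6 and 160.7 CPM in nerve, 66.6, 82.1 and 91.2 in the neurofibromas and 28.1, 52.8 and 122.8 in MPNST; the highest MPNST value is that of the library labelled MPNST 6. Cdkn2a, the locus that encodes Arf, was 0.268 to 3.01 CPM in nerve and 3.55 to 8.59 in neurofibroma. In MPNST 1 to 5 it was 10.7, 1.42, 9.79, 692.0 and 11.3 CPM, and in the library labelled MPNST 6 it was 0.294; MPNST 2 and the library labelled MPNST 6 lay within the range of nerve. The 12 markers of sensory neurons summed to 3273.3 to 6978.3 CPM in nerve and 4763.3 to 6481.8 in neurofibroma, so both trigeminal groups held RNA of neurons. In MPNST 1 to 5 the same markers summed to 4.65 to 17.9 CPM, and in the library labelled MPNST 6 to 1535.1. All 12 markers reached 1 CPM in every trigeminal library, 7 did in the library labelled MPNST 6 and 1 to 6 in MPNST 1 to 5. The 6 Schwann cell markers summed to 2436.0 to 6110.2 CPM in nerve, 5957.1 to 10617.6 in the neurofibromas and 45.6 to 1064.0 in MPNST. Single libraries held transcripts of other tissues. Nerve 6 had 2120.3 CPM of oligodendrocyte and astrocyte markers, against at most 531.4 in other nerves. MPNST 2 had 280442.5 CPM of salivary gland markers, MPNST 3 had 48410.1 of skeletal muscle markers, and the library labelled MPNST 6 had 3998.6 of sympathoadrenal and 3108.3 of pancreatic acinar markers. In bulk RNA, fewer cells of a type and less RNA per cell cannot be told apart. The labels do not name the animal behind each library, and p-values measure the spread between these samples.

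The RefSeq promoter table (assembly GRCm38.p6, not the build of the counts) held windows for 32 of the 47 members, 37 windows of 300 bases in all, each from 250 bases before a start site to 50 bases from it. Gria2 and Chrna1 are shown because their levels split the tumour libraries, as described further on, and Chrnb1 because it was the member called higher in MPNST. All run 5′ to 3′ on the gene's strand. In Gria2 (chr3:80802786-80803085, minus strand) capitals mark a match to RE1, the element bound by the repressor of neuronal genes REST, whose consensus was searched on both strands with up to 2 mismatches. It lies on the opposite strand, with its first base 174 bases before the start site. In Chrna1 (chr2:73580289-73580588, minus strand) capitals mark CAGCTG, an E-box that reads the same on both strands and is bound by muscle factors of the MyoD family. The Chrnb1 window (chr11:69795888-69796187, minus strand) holds no CAGCTG and is printed without capitals. Other spellings of an E-box were not searched.
Gria2: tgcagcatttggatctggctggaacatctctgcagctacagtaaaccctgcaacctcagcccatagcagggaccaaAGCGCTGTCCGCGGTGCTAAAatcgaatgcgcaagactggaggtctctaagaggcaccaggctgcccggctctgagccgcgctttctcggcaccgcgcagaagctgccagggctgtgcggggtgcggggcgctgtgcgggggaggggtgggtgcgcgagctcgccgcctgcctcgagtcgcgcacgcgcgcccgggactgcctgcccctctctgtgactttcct
Chrna1: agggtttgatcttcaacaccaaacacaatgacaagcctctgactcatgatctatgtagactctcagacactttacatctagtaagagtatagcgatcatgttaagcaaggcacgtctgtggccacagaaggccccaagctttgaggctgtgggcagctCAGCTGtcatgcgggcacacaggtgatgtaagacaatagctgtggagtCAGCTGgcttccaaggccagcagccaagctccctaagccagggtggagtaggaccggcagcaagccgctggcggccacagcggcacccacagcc
Chrnb1: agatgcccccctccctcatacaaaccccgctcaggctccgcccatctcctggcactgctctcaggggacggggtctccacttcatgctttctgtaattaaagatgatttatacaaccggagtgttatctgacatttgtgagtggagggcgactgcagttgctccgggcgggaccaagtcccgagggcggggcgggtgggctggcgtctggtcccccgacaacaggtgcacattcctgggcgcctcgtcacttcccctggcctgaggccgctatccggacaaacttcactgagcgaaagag

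RE1 matched 15 of all 32851 windows (0.0457%), and among the member windows it matched that of Gria2 alone. CAGCTG matched 16.3% of all windows and 4 of the 37 member windows (10.8%), those of Chrna1, Chrna9, Chrnb4 and Glra3. The motif of the factor NRF1, searched on both strands with no mismatch, matched 4.6% of all windows and those of Gabrb1 and Gria2 (5.41% of member windows); in Gria2 it did not overlap RE1. A match in these letters is no evidence of binding, and the absence of one says only that the letters are not in the window.

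On a per-length scale, members of several families were abundant in normal nerve. Per kb of the longest coding transcript, the median was 44.1 CPM for Grik1, the kainate subunit of small sensory neurons, and 30.5 for Grin1, the obligatory NMDA subunit. Gria4 (18.9 CPM per kb), Chrna7 (14.6), Chrna6 (14.4) and Gabrg1 (14) had lower medians. Grik1 and Grin1 overlapped over the 6 nerves, with 34 to 60.5 and 26.9 to 39.2 CPM per kb. With the median in place of the longest transcript length they stood at 50.1 and 32.4. In neurofibroma Grik1 (35.8) was again above Grin1 (29.5). In MPNST the order was another one: Grik5 (4.88 CPM per kb), Gria3 (3.68), Chrnb1 (3.57) and Gabra3 (2.89) led. With the median length Gria3 (6.65) stood above Grik5 (4.88).

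**Figure D1:**
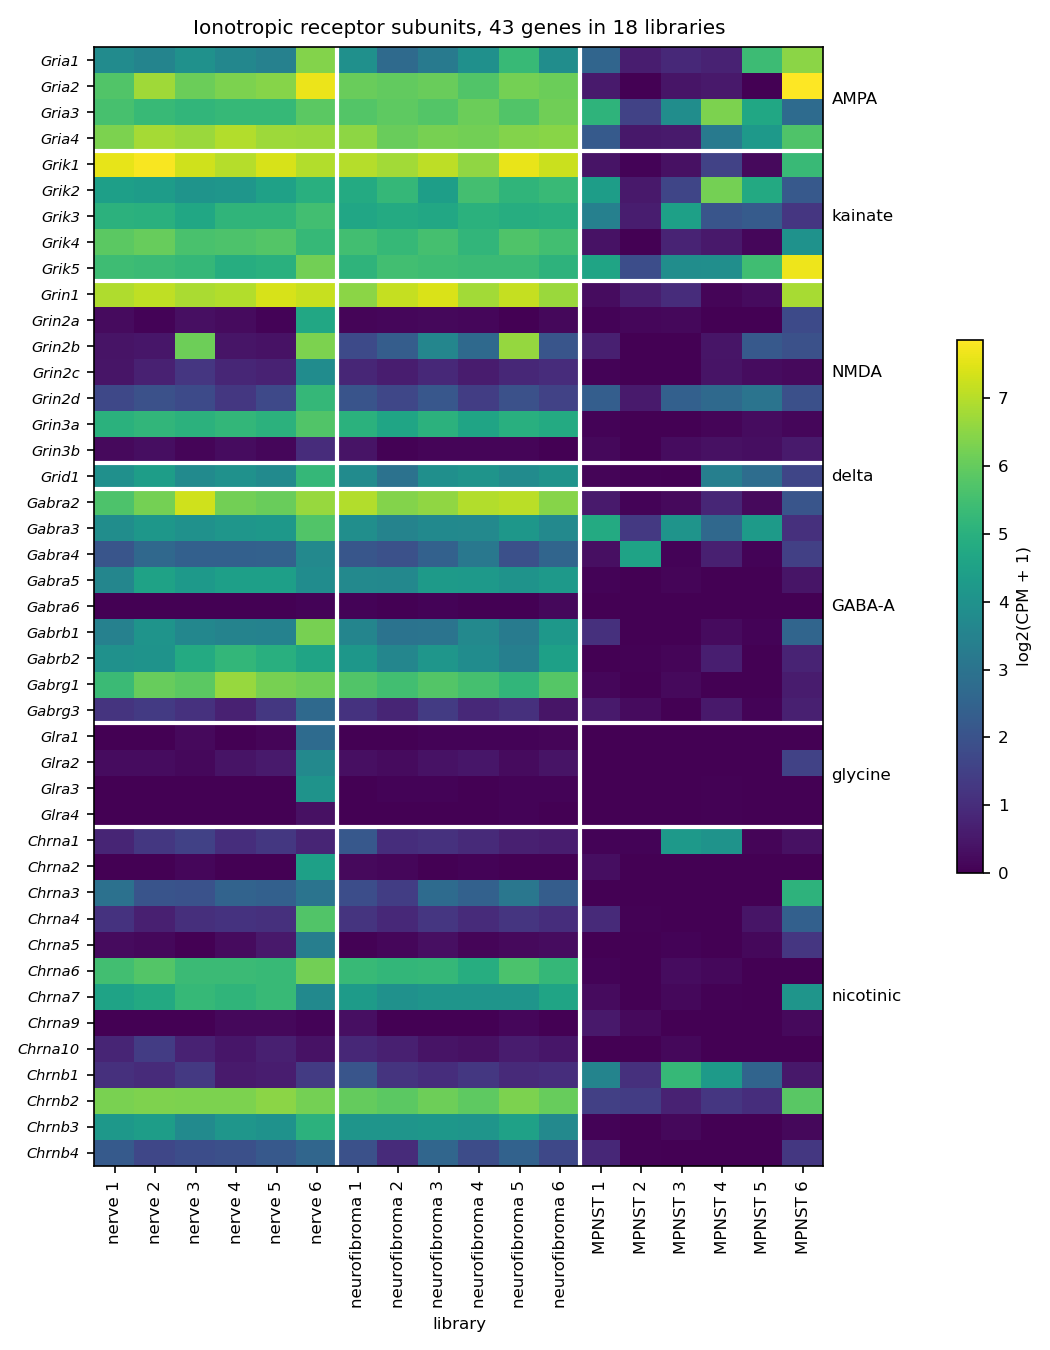
Level of 43 of the 47 members (vertical axis, by receptor class) in each of the 18 libraries (horizontal axis), as log2(CPM + 1). The nerve and neurofibroma columns look alike except for nerve 6, MPNST 1 to 5 are dark for most members, and the library labelled MPNST 6 is bright for many of them.

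Counting members at 1 CPM or more gave a like number in the trigeminal groups and fewer in the tumours. Nerve libraries had 32 to 41 of the 47 members at that level, with 41 in nerve 6 and at most 36 in the others. Neurofibroma libraries had 32 to 35. MPNST 1 to 5 had 12, 6, 8, 13 and 14, and the library labelled MPNST 6 had 29. All 12 trigeminal libraries had 29 members at 1 CPM or more. Of these, 13 were under 1 CPM in each of MPNST 1 to 5, among them Gria2, Grik4, Grin1, Grin3a, Gabra2, Gabra5, Gabrb2, Gabrg1, Chrna3, Chrna6, Chrna7 and Chrnb3. No count of this kind was made over all genes, so no share can be set beside the 13. The library labelled MPNST 6 was set apart there with its values known. Only Gria3, Grik5 and Gabra3 reached 1 CPM in all 6 MPNST libraries. Gabra6, Glra4, Grin3b and Chrna9 were under 1 CPM in all 18 libraries.

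**Figure D2:**
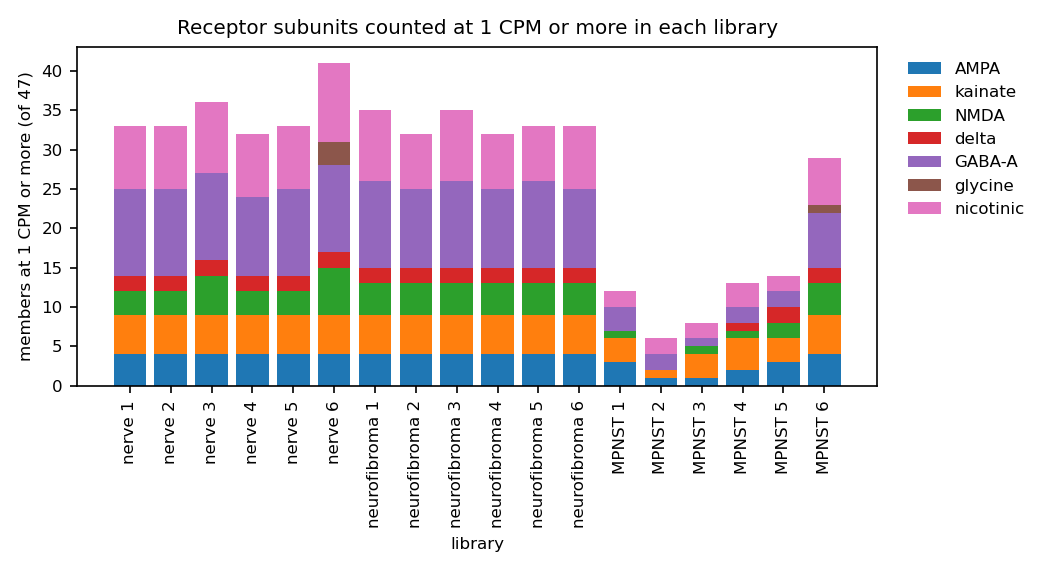
Number of members at 1 CPM or more (vertical axis, of 47) in each library, stacked by receptor class. Nerve and neurofibroma bars stand between 32 and 41, MPNST 1 to 5 between 6 and 14, and the library labelled MPNST 6 at 29.

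Summed over a class, GABA-A subunits reached a median of 743.0 CPM in nerve (470.8 to 863.4), 551.4 in neurofibroma (419.7 to 592.3) and 22.4 in MPNST (12.3 to 202.9). Kainate subunits summed to a median of 307.4 CPM in nerve, 261.9 in the neurofibromas and 63.4 in MPNST. For AMPA subunits the medians were 243.9, 216.4 and 63.2 CPM, and for nicotinic subunits 185.7, 148.6 and 25.4. NMDA subunits had medians of 190.4 and 157.2 CPM in the trigeminal groups and 6.12 in MPNST. Glycine receptor α subunits stayed at or under 0.571 CPM in sum in every library but 2, nerve 6 (33.5) and the library labelled MPNST 6 (1.96). These sums weigh long transcripts more.

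The first comparison asked how benign tumour formation in the trigeminal nerve changed the members. Neurofibroma and nerve differed little. Of 37 members tested, 2 rose (Gria3 and Grik2) and 3 fell (Chrnb2 and Gria4 among them) in neurofibroma (edgeR's quasi-likelihood test, Benjamini-Hochberg adjusted p under 0.05 over 16464 genes), where 7.94% of all genes tested were called higher and 6.00% lower. The other 32 members tested were not called, and 10 were not tested because their counts were too low. The median log2 change of the members tested was -0.37, against -0.02 over all genes. For 1 member tested all neurofibromas lay below all nerves (2.13% of all genes tested), and for 0 members all lay above (3.95%). Levels of called members are set out next, excitatory subunits first.

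Gria3, an AMPA subunit, had 35.2, 38.4 and 57.9 CPM in nerve (lowest, median, highest) and 51.7, 56.7 and 70 in neurofibroma. All 6 neurofibromas were above 5 of the 6 nerves, and nerve 6 alone overlapped them (log2 change 0.48, SE 0.13, adjusted p = 0.0277). Grik2, a kainate subunit, had 15.7, 20 and 30.5 CPM in nerve and 20.1, 35.5 and 44.4 in neurofibroma. Its groups overlapped through neurofibroma 3 and nerve 6 (0.70, SE 0.20, adjusted p = 0.0367). Gria4, an AMPA subunit, went the other way, with 78, 102.9 and 122.5 CPM in nerve and 66.4, 79.7 and 91.7 in neurofibroma. The ranges of Gria4 overlapped (-0.38, SE 0.12, adjusted p = 0.0493).

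Chrnb2, the usual β subunit of neuronal nicotinic receptors, had 73.2, 78.6 and 89.1 CPM in nerve and 57.6, 63.7 and 78.3 in neurofibroma (-0.29, SE 0.09, adjusted p = 0.0427), with overlapping ranges. Of the GABA-A members, 9 of 10 that were tested and not called had a log2 difference below 0, from -0.18 (Gabra5) to -1.09 (Gabrb1), and Gabra2 had 0.31.

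The calls of Gria3, Grik2, Gria4 and Chrnb2 were lost in most fits that left out 1 library, while the log2 changes kept their sign. Over all 12 such fits the changes ran from 0.41 to 0.59 for Gria3 and 0.57 to 0.83 for Grik2. They ran from -0.45 to -0.33 for Gria4 and -0.35 to -0.25 for Chrnb2. The call of Gria3 was lost without nerve 2, 3, 4 or 5 or neurofibroma 2, 4 or 6 (adjusted p up to 0.0748). That of Grik2 was lost without nerve 1 to 5 or neurofibroma 2, 4, 5 or 6 (up to 0.0951). That of Chrnb2 was lost without nerve 2, 3, 4 or 5 or neurofibroma 1, 2, 3, 4 or 6 (up to 0.0913), and that of Gria4 without nerve 2, 3, 4 or 5 or neurofibroma 2 to 6 (up to 0.1). With nerve 6 and neurofibroma 1 left out, all 5 calls stayed and Chrna7 was called lower as well. Schwann cell markers were higher in neurofibroma, as given above. Sensory neuron markers had a median sum of 5989.9 CPM in nerve and 5315.7 in neurofibroma. Nerve 6 had 3273.3 CPM of them and the other nerves at least 5671.9. Neurofibroma 5 had 6481.8 CPM and the other neurofibromas at most 5613.8. The part of Schwann cell and neuron RNA in these changes was not tested.

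The larger steps were those to MPNST. Against neurofibroma, 16 of 35 members tested fell and 1 rose, where 16.8% of all genes tested were called lower and 25.3% higher. The median log2 change was -2.60 for the members tested and 0.22 for all genes. Against nerve, 18 of 34 fell and 1 rose, where 18.4% of all genes were called lower and 27.6% higher, with medians of -2.94 and 0.22. With limma-voom and quality weights, where the median of all genes was -0.01, the split of all genes was 4707 higher and 5040 lower against neurofibroma and 5140 and 5242 against nerve, where edgeR called 4176 and 2772, and 4527 and 3007. The member that rose was Chrnb1 in both. All MPNST libraries lay below all neurofibromas for 16 members tested (16.2% of all genes tested) and below all nerves for 20 (15.6%). No member tested lay wholly above, against 2.24% and 2.87% of genes. The 2 comparisons share the MPNST libraries, so they are given side by side and not as independent results.

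**Figure D3:**
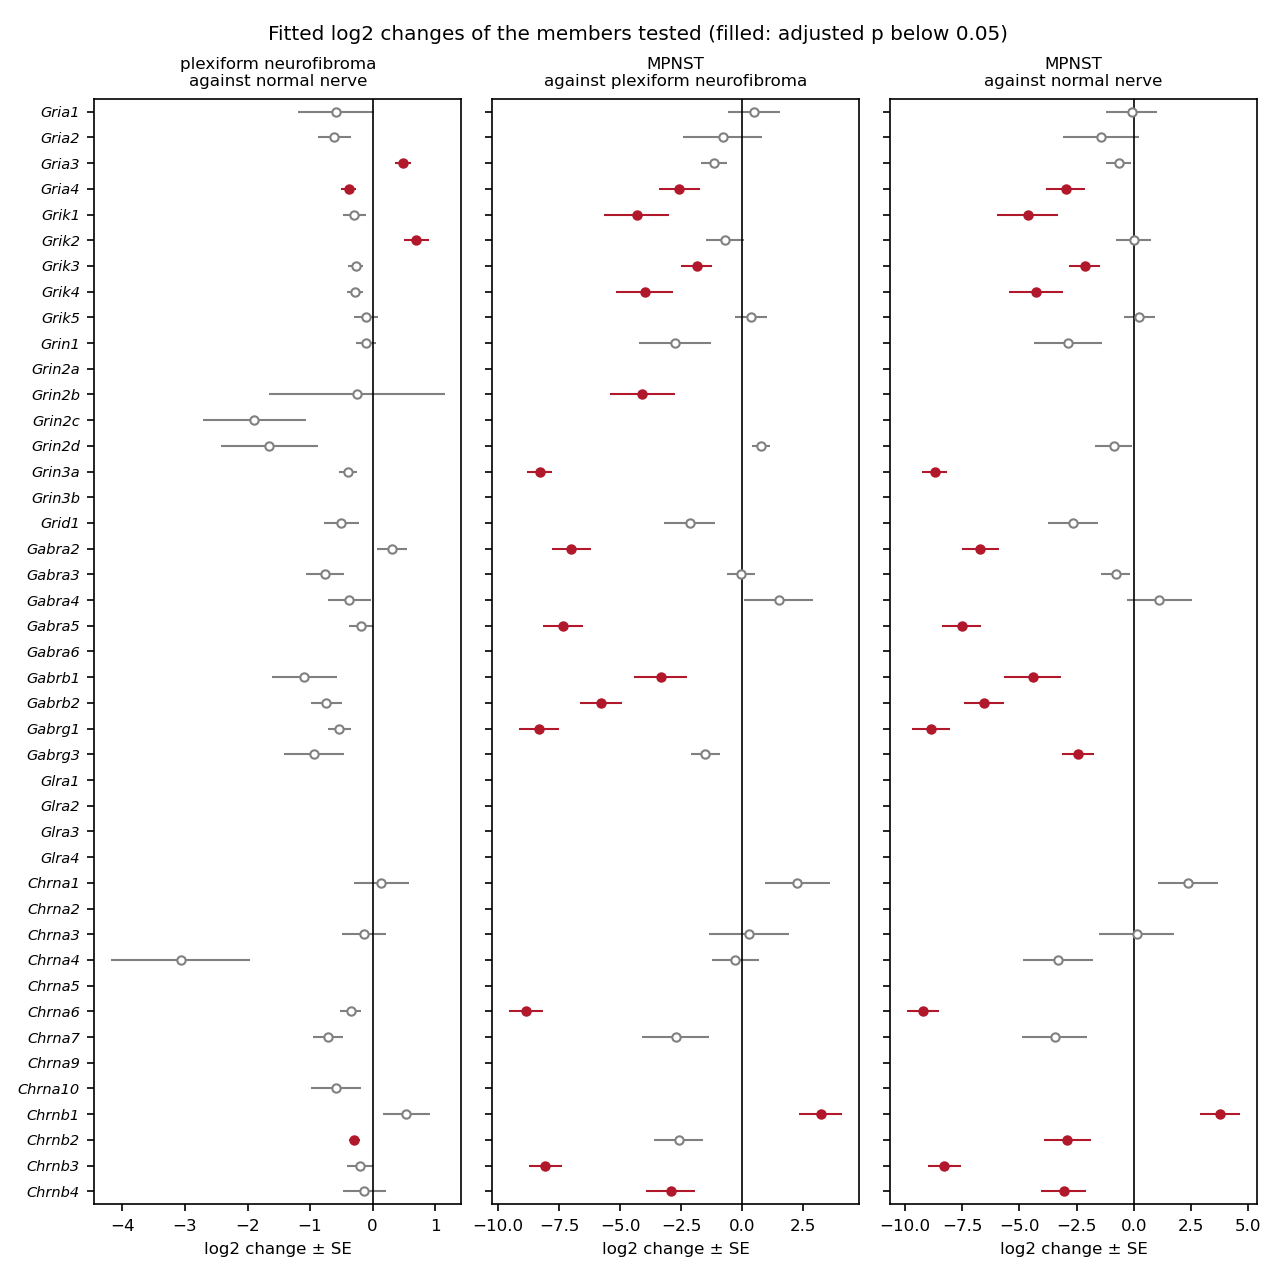
Fitted log2 change (horizontal axis, bars are 1 SE) of the 43 members drawn in the 3 comparisons, with 6 libraries a group and filled points for an adjusted p below 0.05. Changes in neurofibroma that were called lie between -0.38 and 0.70, those in MPNST between -9.21 and 3.76, and members without a point were not tested. The horizontal scales differ between panels.

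Of the GABA-A subunits, 6 of 11 tested fell against neurofibroma and 8 of 11 against nerve, beside 7 of 15 and 6 of 14 glutamate receptor subunits of all types. Of all genes tested, 16.8% were called lower against neurofibroma and 18.4% against nerve. Gabra2, an α subunit common in brain and ganglia, had 50, 72.6 and 155.7 CPM in nerve, 83.4, 107.5 and 131.9 in the neurofibromas and 0.0463, 0.311 and 3.25 in MPNST. Its log2 change was -7.00 (SE 0.79, adjusted p = 6.72e-05) against neurofibroma and -6.70 (SE 0.82, adjusted p = 9.46e-05) against nerve. Gabra5, the α subunit of many receptors outside synapses, had 11.1, 19.2 and 22 CPM, then 11.7, 16.8 and 18.4, then 0, 0.0321 and 0.355 in the same order of groups (-7.33, SE 0.81, and -7.52, SE 0.84). For both α subunits every tumour lay below every trigeminal library.

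The γ1 subunit gene Gabrg1 had 39.9, 66.8 and 99.8 CPM in nerve, 35.1, 48.9 and 54.5 in the neurofibromas and 0, 0.0459 and 0.518 in MPNST. It showed the largest fall of the class, -8.32 (SE 0.81, adjusted p = 2.36e-05) against neurofibroma and -8.85 (SE 0.84, adjusted p = 1.97e-05) against nerve. Every tumour lay below every trigeminal library. Gabrg3 had 0.651, 1.33 and 5.43 CPM in nerve, 0.361, 0.995 and 1.56 in the neurofibromas and 0, 0.312 and 0.603 in MPNST. It fell against nerve (-2.44, SE 0.71, adjusted p = 0.0143) and was not called against neurofibroma (-1.51, SE 0.61, adjusted p = 0.0619).

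Of the β subunits, which carry part of the GABA binding site, Gabrb2 had 14.8, 25.2 and 36.1 CPM in nerve, 9.52, 14.9 and 21 in the neurofibromas and 0, 0.0538 and 0.711 in MPNST. It changed by -5.79 (SE 0.86) and -6.53 (SE 0.88) on the log2 scale. Gabrb1 had 9.97, 10.9 and 75.9 CPM in nerve, 6.96, 9.76 and 17.2 in the neurofibromas and 0, 0.118 and 4.92 in MPNST (-3.34, SE 1.09, and -4.42, SE 1.23). The call of Gabrb1 against neurofibroma was lost without neurofibroma 6 (adjusted p = 0.0534). Without the library labelled MPNST 6, which held the highest tumour value, the change of Gabrb1 against neurofibroma was -5.12.

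Gabra3 was the GABA-A member that was still counted in every tumour. This α subunit gene had 13.6, 16.7 and 51.8 CPM in nerve, 10.5, 12.2 and 17.1 in the neurofibromas and 1.13, 10.6 and 27.3 in MPNST. MPNST 1, 3 and 5 held 27.3, 16 and 18.6 CPM, MPNST 4 held 5.25, and MPNST 2 and the library labelled MPNST 6 held 1.46 and 1.13. The groups overlapped and it was not called (-0.05, SE 0.59, adjusted p = 0.954 against neurofibroma). Gabre, which encodes the ε subunit and lies outside the symbol rule, was called higher in MPNST, with 0.493, 0.939 and 1.7 CPM in the neurofibromas and 0.209, 5.34 and 24.4 in MPNST (3.13, SE 0.81, adjusted p = 0.00946).

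**Figure D4:**
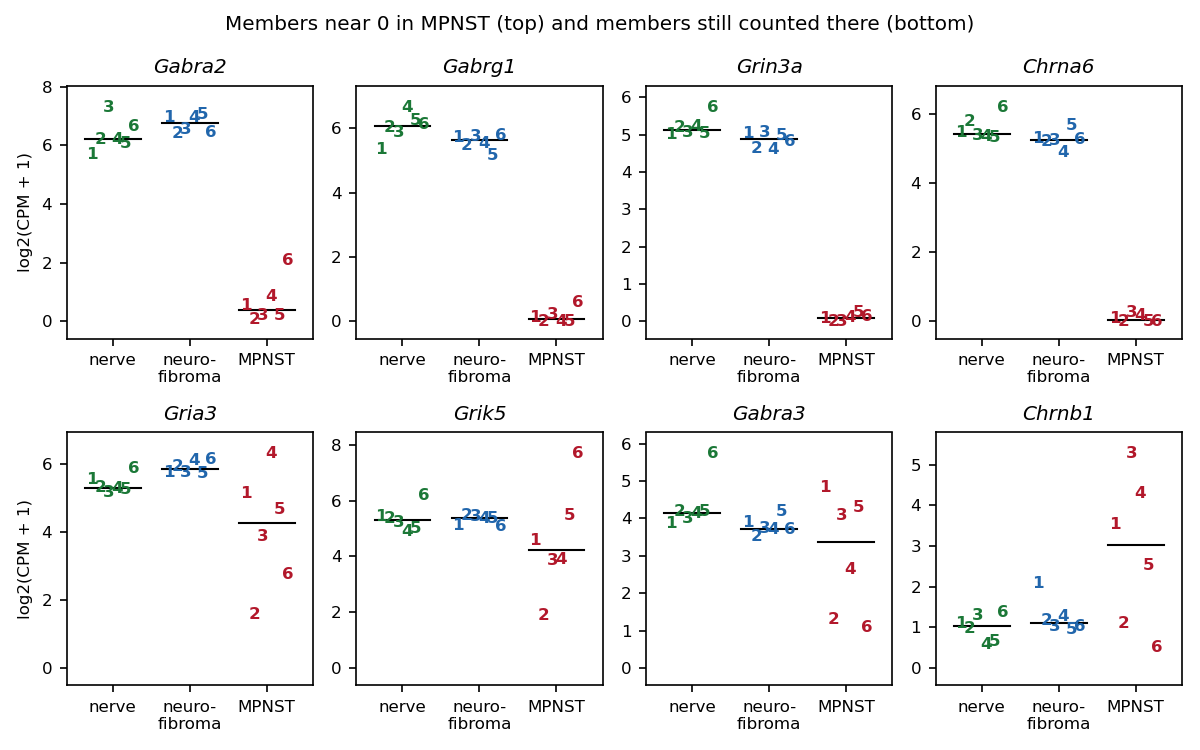
Level of 8 members as log2(CPM + 1) by group, with each library drawn as its number and the group median as a line. For Gabra2, Gabrg1, Grin3a and Chrna6 all 6 MPNST libraries lie under all others. Grik5, Gabra3 and Chrnb1 keep some tumour libraries within or above the trigeminal range, and Gria3 keeps MPNST 4 alone there.

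Among kainate subunits, 3 of 5 fell in both comparisons (16.8% and 18.4% of all genes tested). Grik1 had 124.4, 161.3 and 221.1 CPM in nerve, 94.2, 130.9 and 194.1 in the neurofibromas and 0.0502, 0.3 and 38.9 in MPNST. The highest MPNST value was that of the library labelled MPNST 6, the next was 1.92, and all tumours lay below the trigeminal libraries. Its log2 change was -4.33 (SE 1.32, adjusted p = 0.0203) and -4.64 (SE 1.34, adjusted p = 0.0144), or -7.73 and -8.04 without the library labelled MPNST 6. Grik4, which needs a partner from Grik1 to Grik3 to form a channel, had 37.5, 51.4 and 64.8 CPM, then 35.3, 43.4 and 51.1, then 0, 0.378 and 15.1 (-3.99, SE 1.17, and -4.28, SE 1.19; -6.91 and -7.20 without that library). Grik3 was lower by less. It had 24.8, 33.5 and 43.4 CPM in nerve, 24.3, 28 and 31.9 in the neurofibromas and 0.538, 3.46 and 21.2 in MPNST, with 21.2 in MPNST 3 (-1.87, SE 0.65, and -2.14, SE 0.67). Its call against neurofibroma held in 3 of 12 fits that left out 1 library, those without MPNST 2, 3 or 6, and was lost without each of the 6 neurofibromas and without MPNST 1, 4 or 5 (adjusted p up to 0.0778).

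The other kainate members, Grik2 and Grik5, kept trigeminal levels in part of the tumours. Grik2 had 0.439, 11.6 and 74.4 CPM in MPNST, with 74.4 in MPNST 4, 19.7 in MPNST 1 and 26.5 in MPNST 5 (log2 difference -0.70, SE 0.79, not called against neurofibroma). Grik5, which like Grik4 needs a partner subunit, had 28.9, 38.2 and 71.6 CPM in nerve, 32.8, 40.2 and 43.5 in the neurofibromas and 2.65, 18.4 and 204.0 in MPNST. It was highest in the library labelled MPNST 6, and MPNST 5 held 43.3. Grik5 was not called with all libraries (0.35, SE 0.66, adjusted p = 0.693 against neurofibroma). Without the library labelled MPNST 6 it was called lower against neurofibroma (-0.91, adjusted p = 0.0433) and against nerve (-1.02, adjusted p = 0.0427).

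Of the 4 AMPA subunits, Gria4 alone was called in MPNST. Gria4 fell to 0.426, 6.04 and 50.9 CPM in MPNST (-2.58, SE 0.84, adjusted p = 0.0263 against neurofibroma; -2.97, SE 0.85, adjusted p = 0.0136 against nerve). All tumours lay below all trigeminal libraries, and the call against neurofibroma was lost without MPNST 4 (adjusted p = 0.0507). Gria2, whose product makes AMPA channels nearly impermeable to calcium, had 51.6, 82.2 and 196.2 CPM in nerve and 52.5, 66 and 73.4 in neurofibroma. In MPNST 1 to 5 Gria2 was 0.492, 0, 0.356, 0.443 and 0 CPM, and in the library labelled MPNST 6 it was 232.6, the highest of all 18. With all libraries it was not called (-0.80, SE 1.62, adjusted p = 0.712 against neurofibroma), and without that library it changed by -7.73 (adjusted p = 3.01e-06).

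Gria3 had 1.96, 19.1 and 78.1 CPM in MPNST, with 34 in MPNST 1, 24.6 in MPNST 5 and 78.1 in MPNST 4, above every other library. The groups overlapped, and it was not called (-1.15, SE 0.54, adjusted p = 0.106 against neurofibroma). Gria1 had 9.93, 12.2 and 83.5 CPM in nerve, 5.64, 14 and 38.8 in the neurofibromas and 0.535, 2.92 and 88.9 in MPNST. Its high values were in nerve 6, neurofibroma 5, MPNST 5 (40.8) and the library labelled MPNST 6 (0.47, SE 1.06, adjusted p = 0.742). In MPNST 1, 3, 4 and 5, Gria3 was therefore counted at 13.6 to 78.1 CPM beside at most 0.492 CPM of Gria2. Delta-type receptors bind other ligands than glutamate and organise synapses. Grid1 had 12.5, 14.6 and 36.4 CPM in nerve and 6.77, 13.6 and 15.9 in neurofibroma. In MPNST it was at most 0.0803 CPM in libraries 1 to 3, 9.57 in MPNST 4, 5.97 in MPNST 5 and 2.1 in the library labelled MPNST 6, so every tumour lay below every nerve. It was not called with all libraries (adjusted p = 0.118 and 0.0619) and was called lower without MPNST 4 (adjusted p = 0.049 and 0.0283).

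Of the NMDA subunits, 2 of 4 tested fell against neurofibroma (16.8% of all genes tested) and 1 of 3 against nerve (18.4%). Grin3a, whose product lowers calcium entry through NMDA receptors, had 31.3, 33.9 and 52.1 CPM in nerve, 23.3, 28.8 and 32.1 in the neurofibromas and 0, 0.0646 and 0.19 in MPNST. All 6 tumours lay under all trigeminal libraries, the library labelled MPNST 6 included (0.097 CPM), and the log2 change was -8.30 (SE 0.53, adjusted p = 1.62e-06) and -8.69 (SE 0.54, adjusted p = 1.25e-06). Grin1 had 115.1, 130.5 and 167.5 CPM in nerve, 89.5, 126.3 and 171.3 in the neurofibromas and 0.0754, 0.384 and 113.6 in MPNST. The library labelled MPNST 6 held 113.6 CPM and the other tumours at most 0.982. Grin1 was not called with all libraries (adjusted p = 0.147 and 0.127) and changed by -7.71 and -7.82 without that one. Grin2d, the subunit of NMDA receptors early in development, had 1.69, 2.55 and 3.36 CPM in the neurofibromas and 0.492, 4.21 and 7.09 in MPNST. It was above all neurofibromas in MPNST 1, 3, 4 and 5 and was not called (0.76, SE 0.36, adjusted p = 0.112), although it was called higher without MPNST 2.

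Grin2b, the main NMDA partner subunit of the young brain, did not follow the groups. In the 6 nerves it was 0.322, 0.393, 69.3, 0.348, 0.306 and 79.1 CPM and in the 6 neurofibromas 2.43, 3.96, 11.3, 5.41, 97.5 and 3.17. Nerve 3, nerve 6 and neurofibroma 5 thus stood far above the rest, and apart from these 3 every neurofibroma was above every nerve. It was at most 3.55 CPM in MPNST. The call against neurofibroma (-4.09, SE 1.34, adjusted p = 0.0273) was lost without neurofibroma 5, where the change was -2.13, and without MPNST 1 or MPNST 4 (adjusted p up to 0.131). It was also lost with limma-voom (-3.56, adjusted p = 0.166) and without MPNST 2, 3 and 6 (-3.89, adjusted p = 0.0584). Against nerve it was not tested.

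Of 9 nicotinic subunits tested, 3 fell against neurofibroma and 4 against nerve, all of them neuronal subunits, and 1 rose. Over all genes tested, 16.8% and 18.4% were called lower in these comparisons, and 25.3% and 27.6% higher. Chrna6, an α subunit of catecholamine and sensory neurons, had 38.7, 41.7 and 71.8 CPM in nerve, 28.7, 36.9 and 49.3 in the neurofibromas and 0, 0.0273 and 0.203 in MPNST. Its changes, -8.86 (SE 0.69, adjusted p = 4.85e-06) and -9.21 (SE 0.70, adjusted p = 4.75e-06), were the largest called falls of any member with all libraries. Without the library labelled MPNST 6 they were -8.57 and -8.92, and Gabrg1 was then at -9.58 and -10.11. Chrnb3, which joins Chrna6 in receptors, had 12.6, 16.9 and 32.2 CPM, then 12.1, 16.2 and 21.5, then 0, 0.0268 and 0.133 (-8.07, SE 0.68, and -8.27, SE 0.72). Both were near 0 in all 6 tumours, the library labelled MPNST 6 included, and both remained called without any 1 library.

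Chrnb2 had 0.68, 1.5 and 57.4 CPM in MPNST, below all trigeminal libraries. It fell against nerve (-2.90, SE 1.01, adjusted p = 0.033) and was not called against neurofibroma (-2.60, adjusted p = 0.0531). Its call against nerve was lost without nerve 2, 4 or 5 or any of MPNST 1 to 5 (adjusted p up to 0.0665), and without the library labelled MPNST 6 the change was -5.36 (adjusted p = 6.16e-06). Chrnb4, the β subunit of autonomic ganglia, had 2.16, 3.17 and 5.04 CPM in nerve, 0.96, 2.68 and 5 in the neurofibromas and 0, 0.0207 and 1.44 in MPNST. Its log2 change was -2.93 (SE 1.01, adjusted p = 0.0342) and -3.07 (SE 0.98, adjusted p = 0.023). The first of these calls was lost without neurofibroma 1, 3, 4, 5 or 6 or MPNST 2 or 5 (adjusted p up to 0.0664).

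Chrna3, the partner of Chrnb4 in autonomic ganglia, was 2.92, 4.47 and 7.1 CPM in nerve and 1.67, 4.23 and 7.72 in neurofibroma. It had 0 counts in MPNST 1 to 5 and 33.1 CPM in the library labelled MPNST 6. A floor of 3 counts over MPNST 1 to 5 together makes it at least 134-fold lower there than in the neurofibromas and at least 147-fold lower than in nerve, while the fit with all 6 libraries gave 0.26 (SE 1.64, adjusted p = 0.91) and 0.12 (SE 1.64, adjusted p = 0.958). Chrna7, which forms receptors of a single subunit type with high calcium entry, was 12.4, 30.4 and 38.5 CPM in nerve and 14.8, 16.3 and 23.1 in neurofibroma. In MPNST it was 16.2 CPM in the library labelled MPNST 6 and at most 0.165 in the others, and without that library it changed by -7.66 against neurofibroma (adjusted p = 1.82e-06). The floor covers counting error only.

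Chrnb1, the β subunit of the muscle receptor, was the member that rose. It had 0.478, 1.04 and 1.56 CPM in nerve, 0.931, 1.15 and 3.19 in the neurofibromas and 0.41, 7.69 and 37.4 in MPNST. MPNST 1, 3, 4 and 5 held 10.6, 37.4, 18.6 and 4.76 CPM, above all 12 trigeminal libraries, while MPNST 2 (1.13) and the library labelled MPNST 6 (0.41) did not. The log2 change was 3.22 (SE 0.88, adjusted p = 0.0119) and 3.76 (SE 0.89, adjusted p = 0.00516), and both remained called without any 1 library. Skeletal muscle markers summed to 48410.1 CPM in MPNST 3 and to 1.46 to 15.4 CPM in the other 5 tumours. Without MPNST 2, 3 and 6 the log2 change of Chrnb1 was 2.84 against neurofibroma (adjusted p = 0.000801) and 3.37 against nerve (adjusted p = 0.000232).

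Chrna1, the α subunit of the muscle receptor, had 17.9 CPM in MPNST 3 and 15.5 in MPNST 4 and at most 0.273 in the other tumours. In nerve it was 0.764 to 1.85 CPM and in neurofibroma 0.557 to 3.52, with the highest value in neurofibroma 1, where muscle markers summed to 1547.9 CPM. It was not called (2.25, SE 1.34, adjusted p = 0.192 against neurofibroma). Of the other muscle subunits, outside the symbol rule, Chrne alone reached 1 CPM in either of the 2 tumours. Chrne was 3.34 CPM in MPNST 3 and 0.271 in MPNST 4, Chrnd 0.817 and 0, and Chrng 0.0334 and 0. MPNST 4 thus had Chrna1 and Chrnb1 with muscle markers at 15.4 CPM and without Chrnd or Chrng. The Chrna1 window printed above held CAGCTG and that of Chrnb1 did not. No other spelling of an E-box was searched, and the Chrnb1 window holds the similar letters CAGGTG.

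The library labelled MPNST 6 was the highest tumour for 25 of the 47 members. Gria2 (232.6 CPM), Grik5 (204.0), Gria1 (88.9) and Chrna3 (33.1) were higher there than in any trigeminal library. Gabra2 (3.25), Gabrg1 (0.518), Grin3a (0.097) and Chrna6 (0), which were at 23.3 CPM or more in every trigeminal library, were not. Sympathoadrenal markers were all present at 1 CPM or more in that library and in none of the other tumours, whose sums were at most 1.7 CPM. Left out, it raised the members called lower from 16 to 26 against neurofibroma and from 18 to 26 against nerve. The number of all genes called lower went from 2772 to 4013 and from 3007 to 4180.

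Nerve 6 was the highest nerve for 31 of the 47 members. For 6 it was the one trigeminal library at 1 CPM or more: Grin2a (25.5 CPM), Chrna2 (21), Chrna5 (9.28), Glra1 (5.73), Glra2 (12) and Glra3 (15.5). Grin2a, Glra1 and Glra3 are subunits typical of brain, brainstem and spinal cord. Chrna4 (52 CPM against at most 1.23 in the other nerves), Gabrb1 (75.9 against 15.7), Grin2c (13.2 against 1.37) and Grin2d (36.8 against 2.87) were also far above the other nerves. Gad1 and Gad2, the enzymes that make GABA, were 181.3 and 99.1 CPM in nerve 6 and at most 1.27 and 0.237 in the other nerves. Sensory neuron markers were lowest in nerve 6 among the nerves, at 3273.3 CPM. The part of these other-tissue transcripts in the members' levels was not tested.

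MPNST 2 had a member of its own. Gabra4, an α subunit gene at 3.21 to 12.1 CPM in nerve and 2.78 to 7.82 in neurofibroma, was 22.6 CPM in that library and 0.061 to 1.83 in the other tumours. Against neurofibroma it was not called with MPNST 2 (adjusted p = 0.412), and its fitted difference was -2.91 (adjusted p = 0.0109) without it.

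**Figure D5:**
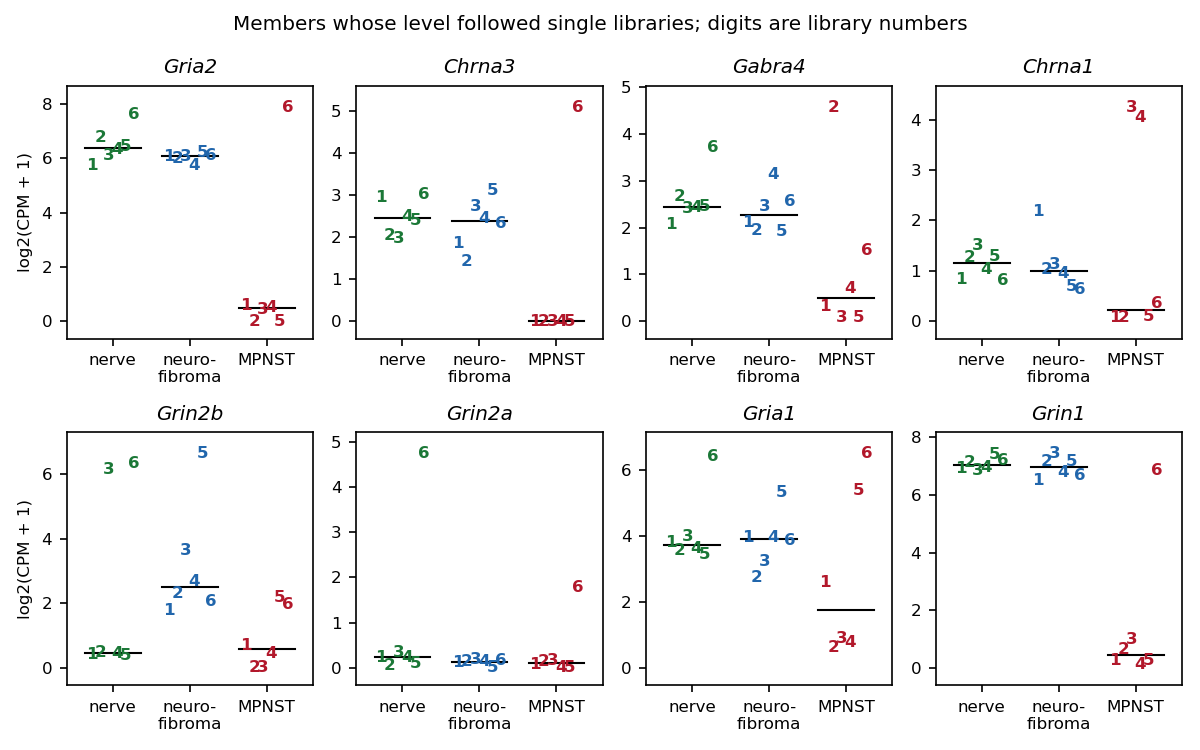
Level of 8 members as log2(CPM + 1) by group, with each library drawn as its number and the group median as a line. Library 6 of MPNST stands apart for Gria2, Chrna3 and Grin1, library 2 for Gabra4, libraries 3 and 4 for Chrna1, and nerves 3 and 6 with neurofibroma 5 for Grin2b.

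Other genes of the same pathways were followed in 4 lists. Metabotropic and muscarinic receptors, which signal through G proteins, had 2 of 12 tested lower in neurofibroma than in nerve, both of them GABA-B subunits. Of all genes tested, 6.00% were called lower in that comparison. Gabbr1 had 307.3, 332.6 and 372.0 CPM in nerve and 178.4, 219.1 and 243.3 in neurofibroma, with no overlap (-0.67, SE 0.09, adjusted p = 0.00214), and Gabbr2 changed by -0.58 (SE 0.11, adjusted p = 0.00719). In MPNST 6 of 12 were lower than in the neurofibromas and 7 of 12 lower than in nerve, where 16.8% and 18.4% of all genes were called lower. Grm8, a glutamate autoreceptor, changed by -6.83 (SE 0.73) and -7.30 (SE 0.77), Gabbr2 by -6.38 (SE 0.86) against neurofibroma and Grm2 by -5.60 (SE 0.66) against nerve.

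Auxiliary, anchoring and assembly proteins had 1 higher and 6 lower of 29 in neurofibroma, where 7.94% of all genes tested were called higher and 6.00% lower. Dlg4, the scaffold PSD-95, changed by -0.72 (SE 0.13), Cacng7, an AMPA receptor partner, by -0.57 (SE 0.13), and Gabarap, which traffics GABA-A receptors and serves autophagy, by 0.42 (SE 0.09). In MPNST, 2 were higher and 7 lower of 29 against neurofibroma, where 25.3% of all genes were called higher and 16.8% lower. Of 28 tested against nerve, 4 were higher and 9 lower, where 27.6% of all genes were called higher and 18.4% lower. Nsf, which recycles membrane fusion complexes and binds AMPA receptors, changed by -2.88 (SE 0.29) and -3.31 (SE 0.30), and Cnih3, an AMPA receptor partner, by -5.66 (SE 0.81) and -5.21 (SE 0.81). Ly6e rose by 3.75 (SE 0.72) and 4.12 (SE 0.78), Dlg1 by 1.13 (SE 0.39) against neurofibroma, and Gabarap by 0.79 (SE 0.24) against nerve.

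Genes of transmitter synthesis and transport had 1 of 18 lower in neurofibroma (6.00% of all genes), Glul (-0.57, SE 0.17, adjusted p = 0.0395). In MPNST 6 of 18 were lower than in the neurofibromas and 10 of 17 lower than in nerve (16.8% and 18.4% of all genes). The vesicular glutamate transporters Slc17a7 and Slc17a6 changed by -8.63 (SE 0.49) and -9.99 (SE 0.81) against neurofibroma, and all 6 tumours were at or under 0.595 CPM for both, the library labelled MPNST 6 included. Of the subunits outside the symbol rule, 3 were tested in each comparison. In neurofibroma the smallest adjusted p among them was that of Glrb (-0.40, SE 0.13, adjusted p = 0.06). In MPNST, Gabre rose and Glrb, which anchors glycine receptors, changed by -3.86 (SE 0.94) and -4.27 (SE 0.97), with Gabrd, the δ subunit of GABA-A receptors, at -2.10 (SE 0.74) and -2.04 (SE 0.74). Glrb was counted at 172.1 to 279.8 CPM in nerve, where 5 of the 6 libraries held under 1 CPM of every glycine receptor α subunit.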

How the data were processed

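RNA of 18 mouse samples was measured as poly(A) RNA with a stranded kit, per the labels' protocols. The deposited values are estimated counts per gene, not normalized, in 1 table. The tools named are FastQC, DESeq2 and Salmon 1.4.0, with the build GRCm39, per the submitters' processing notes, which state no role for each; Salmon's settings and the annotation release were not given in the sources used here. All 18 columns were matched to samples by name. Members and lists were chosen with earlier results of these data known.

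Counts were rounded. Each pair of groups was fitted by quasi-likelihood (glmQLFit and glmQLFTest of edgeR 4.0.16, R 4.3.3, two-sided) after filterByExpr and TMM scaling, adjusted over all genes tested by Benjamini-Hochberg and called below 0.05. The SE is the log2 change over the square root of F. The procedure was tested on simulated counts for neurofibroma against nerve and MPNST against nerve. MPNST against neurofibroma was not simulated. No single library was simulated with transcripts of another tissue, so that case was not tested. CPM use total counts. One count is worth 0.0423 to 0.072 CPM, and counting error alone is 31.6% at 10 counts and 10% at 100. Counts of near-identical genes can be split by estimation. Lengths are those of the longest coding transcript in GENCODE M21 (GRCm38, another build), found for all 47 members. Members called with a mean of 1 CPM in a group are given by lowest, median and highest value; a library is named where it was at least 4 times the next of its group; of each related list the 2 called genes with the smallest p in each direction are named. Results of some members are not reported here; counts over the members include them. Genes named beyond this were chosen after their values were seen.

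Alternatives were RLE and upper-quartile scaling, other filters, DESeq2 1.42.0, voom of limma 3.58.1 with quality weights, a threshold of 0.01, 1 joint fit of the 18 samples, leaving out each library, and leaving out libraries with transcripts of other tissues. A term for the run of columns in the table was chosen after seeing the data.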

Additional observations from a re-analysis of the deposited data

Results flagged for a closer look

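Within each group of 6, 41 of 97 pairs of a member and a group held 1 library set apart from the other 5 by more than Dixon's test at the 95% level allows. That level gives about 1 in 20 for independent, normally distributed values. Members that are high together in 1 library are not independent, so 41 of 97 cannot be judged against that rate. Nerve 6 accounted for 18 of them, each as the highest of its group. In CPM these were Grin3a 52.1, Grin2a 25.5, Grin2c 13.2 and Grin2d 36.8 among NMDA subunits, Gria1 83.5, Grik5 71.6 and Grid1 36.4 among the other glutamate receptor subunits, Gabra3 51.8, Gabra4 12.1, Gabrb1 75.9 and Gabrg3 5.43 among GABA-A subunits, Glra1 5.73, Glra2 12 and Glra3 15.5 among glycine receptor subunits, and Chrna2 21, Chrna4 52, Chrna5 9.28 and Chrnb3 32.2 among nicotinic subunits.

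The library labelled MPNST 6 accounted for 15, also as the highest: Gria2 232.6 CPM, Gria4 50.9, Grik1 38.9, Grik4 15.1, Grik5 204.0, Grin1 113.6 and Grin2a 2.42 of the glutamate receptors, Gabra2 3.25, Gabrb1 4.92 and Glra2 1.96 of the inhibitory ones, and Chrna3 33.1, Chrna4 4.32, Chrna5 1.38, Chrna7 16.2 and Chrnb2 57.4 of the nicotinic ones.

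The remaining 8 were spread over 6 libraries. MPNST 4 was highest for Grik2 (74.4 CPM), MPNST 2 for Gabra4 (22.6), neurofibroma 1 for Chrna1 (3.52) and Chrnb1 (3.19), neurofibroma 5 for Gria1 (38.8) and Grin2b (97.5), and nerve 2 for Chrna10 (1.62). Neurofibroma 2 was the lowest of its group for Grid1 (6.77).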

How the results depend on the processing

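The counts of members called in neurofibroma against nerve were the least settled. The 2 called higher became 1 with no filter on low counts, 0 in 1 fit of all 18 samples and 0 at an adjusted p below 0.01. All genes called higher went from 1307 to 901, 2 and 359 in the same order. The 3 called lower became 1 with no filter, 9 with DESeq2, 6 with limma-voom and 0 in the fit of all 18 samples. They became 0 below 0.01, 5 without nerve 6 and neurofibroma 1, and 1 with the run of columns as a term. All genes called lower went from 988 to 537, 1667, 1913, 0, 161, 1664 and 790 in the same order. Leaving out each library in turn gave 0 to 2 higher and 1 to 7 lower. In MPNST against neurofibroma the 1 member called higher became 2 with limma-voom, 2 without MPNST 2, 3 and 6, and 0 below 0.01, and the 16 called lower became 27 with limma-voom, 8 below 0.01, 25 without MPNST 2, 3 and 6 and 26 without MPNST 6. All genes called lower went from 2772 to 5040, 1749, 5525 and 4013 in the same order. The fit of all 18 samples called 23 members and 3875 of all genes lower, and DESeq2 called 19 and 3395. Leaving out each library gave 1 to 2 higher and 13 to 26 lower. In MPNST against nerve the 18 called lower became 25 with limma-voom, 24 in the fit of all 18 samples and 21 with DESeq2. They became 8 below 0.01, 26 without MPNST 2, 3 and 6 and 26 without MPNST 6. All genes called lower went from 3007 to 5242, 4160, 3650, 1932, 5498 and 4180 in the same order. On leaving out each library, 16 to 26 members were called lower. The cause was not tested, apart from the stricter threshold and the fewer libraries. In the fit of all 18 samples edgeR called 2 genes of any kind in neurofibroma against nerve.

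For 3 members the direction changed under an alternative that called them. Chrna3 in MPNST was -6.65 with limma-voom, -9.32 without MPNST 2, 3 and 6 and -9.19 without MPNST 6 against neurofibroma, and -6.76, -9.40 and -9.27 against nerve; where the remaining tumours were all at 0 these fitted values depend on the prior count. Gabra4 was -3.84 with limma-voom, -3.83 without MPNST 2, 3 and 6 and -2.91 without MPNST 2 against neurofibroma, and -3.89, -4.22 and -3.31 against nerve. Grik5 was -0.91 and -1.02 without MPNST 6. Leaving out each library in turn, against neurofibroma and against nerve, Chrna3 ran up to 0.63 and 0.44, Gabra4 up to 1.78 and 1.46, and Grik5 up to 0.64 and 0.49. Signs also changed for members called under neither setting, such as Gria1 against neurofibroma (-0.72 without MPNST 6), and, without nerve 6, Chrna4 in neurofibroma against nerve (0.10) and Grin2d in neurofibroma and MPNST against nerve (0.17 and 0.89). With edgeR and TMM the median of all genes was 0.22 in both MPNST comparisons. It was 0.17 and 0.14 with RLE and 0.28 and 0.29 with upper-quartile scaling. The limma-voom fits, which also used TMM, placed it at -0.01. No paired analysis was possible because the labels give no replicate numbers that groups share.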

Other observations

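Grin2b was high in nerve 3, nerve 6 and neurofibroma 5 and low in the other 9 trigeminal libraries, and 1 gene shared that pattern closely. Over the 12 trigeminal libraries, among 14991 genes that reached more than 3 CPM in 1 of them, Prima1, which anchors acetylcholinesterase to membranes, had the highest Pearson correlation with Grin2b on the log2(CPM + 1) scale (r = 0.92), a description of libraries that share 1 table and were looked at after their values were seen. Prima1 was 17.9 CPM in nerve 3, 22.3 in nerve 6 and 17.2 in neurofibroma 5, and 3.22 to 4.8 CPM in the other 9. The next gene, Shb, had r = 0.87 but 4.49, 6.6 and 4.16 CPM in those 3 libraries beside at most 3.68 in the others. Nerve 6 stood apart for many members and for glial markers of the brain, while nerve 3 and neurofibroma 5 did not stand out in the oligodendrocyte and astrocyte list.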
